A study of Mus musculus with 4 samples.

Results

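The 10 genes described here encode the scaffold protein AHNAK, its relative AHNAK2, 4 annexins and 4 S100 proteins. They were picked by symbol (*Ahnak*, *Ahnak2*, *Anxa1*, *Anxa2*, *Anxa3*, *Anxa5*, *S100a4*, *S100a6*, *S100a10* and *S100a11*) from the 22063 genes listed in the count table, with their levels and their change between groups already known. All 10 passed the filter on low counts, which kept 11727 genes. Their values in the contrast of the groups are therefore a description, and no p-value is given for them.

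AHNAK is a giant scaffold protein of the cell cortex and cytoplasm that links membrane proteins to the actin cytoskeleton. Annexins bind phospholipid membranes when calcium is present, and S100 proteins are small calcium sensors that act by binding other proteins. Annexin A2 and S100A10 form a tetramer under the plasma membrane, and that tetramer docks the tail of AHNAK at the membrane of epithelial cells, a complex known from membrane repair and from the trafficking of channels.

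RNA-sequencing was performed in TKPTS cells, a mouse proximal tubule epithelial cell line that the labels call TKPT and assign to kidney. The question was which transcripts change in injured tubular cells when integrin β6 is silenced. All cells went through hypoxia at 1% O2 for 24 h and then normal oxygen for 12 h, so no group without hypoxia was compared. Libraries of 2 groups were available, the si-NC group (scrambled siRNA, genotype given as WT, replicates 2 and 3) and the si-Itgb6 group (*Itgb6* siRNA, genotype given as Itgb6 knockdown, replicates 1 and 3). Each group rests on 1 cell line and, as far as stated, 1 siRNA, and the labels do not say whether replicates were separate cultures. The study's methods call its replicates biologically independent in general, without naming these libraries, so p-values are read as measuring only the spread between them. The libraries held 15435087 to 17220285 counts, and replicates differed by more than sampling noise, with a chi-square of 3.21 per gene between the si-NC libraries and 4.08 between the si-Itgb6 libraries.

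By western blot, the study reports lower integrin αvβ6 protein in hypoxic TKPTS cells given *Itgb6* siRNA. Its methods add that the efficiency of the siRNA was checked by qPCR and western blot. In the RNA counts of these libraries, the silenced gene itself did not separate the groups. *Itgb6* counts were 285 (si-NC replicate 2), 284 (si-NC replicate 3), 279 (si-Itgb6 replicate 1) and 260 (si-Itgb6 replicate 3). The groups were -0.0051 ± 0.13 apart in log2 fold change (SE, 95% interval -0.27 to 0.26, adjusted p = 0.991, edgeR quasi-likelihood test). The si-Itgb6 libraries are therefore named by their label throughout, and every direction given is that of libraries labelled si-Itgb6 against libraries labelled si-NC. The epithelial keratins *Krt8*, *Krt18* and *Krt19* were abundant, and *Pax8* and *Cdh16* of the tubule were present. Transporters that define the differentiated proximal tubule (*Slc34a1*, *Slc5a2*, *Slc22a6* and *Slc22a8*) were at 0 in all 4 libraries.

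*Ahnak* is shown first by sequence, because its transcripts differ greatly in size and the values below turn on that. In GENCODE vM21 (GRCm38), *Ahnak* (ENSMUSG00000069833) spans chr19:8989284-9076914 on the plus strand and has 5 transcripts. Ahnak-202, of 18100 bases, reads from an exon at chr19:9000676-9000863 into a single exon of 17498 bases at chr19:9001699-9019196, which holds 16623 of its 16968 coding bases. Ahnak-201, of 830 bases, leaves the same exon for another at chr19:9037159-9037258 and skips the giant exon, and the others measure 989, 1188 and 2200 bases. The junctions below give the last 30 bases of the shared exon (chr19:9000834-9000863) in lower case, followed in capitals by the first 30 bases of the next exon, chr19:9001699-9001728 in the long transcript and chr19:9037159-9037188 in the short one.
Ahnak-202: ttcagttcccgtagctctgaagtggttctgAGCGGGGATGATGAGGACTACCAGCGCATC
Ahnak-201: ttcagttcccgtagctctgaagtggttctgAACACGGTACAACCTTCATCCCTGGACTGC
The lower-case stretch of each line is identical, so reads within it do not tell the long scaffold message from the short one. Reads on the capitals do.

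By level per length, *Anxa2* led and the scaffold genes came late. The deposited FPKM values (fragments scaled to transcript length and to library size) are the scale on which genes of different length can be set side by side. *Anxa2* ranked 23rd of all genes listed by mean FPKM, *S100a6* 53rd, *S100a11* 115th and *Anxa3* 123rd. *S100a10*, the partner of annexin A2 in the tetramer, ranked 291st, *Anxa5* 337th and *Anxa1* 440th. *Ahnak* ranked 2960th, *S100a4* 6673rd and *Ahnak2* 10775th. With the libraries given in the order si-NC replicate 2, si-NC replicate 3, si-Itgb6 replicate 1, si-Itgb6 replicate 3, *Anxa2* had 2144, 2091, 2097 and 2226 FPKM, *S100a10* had 262, 251, 258 and 257 FPKM, and *Ahnak* had 23.8, 27.3, 26.6 and 28 FPKM. The order of the 10 genes was the same within every library, but the ranges of *S100a11* (707 to 773 FPKM) and *Anxa3* (667 to 724 FPKM) over the libraries overlapped. *S100a10* (251 to 262 FPKM) and *Anxa5* (220 to 242 FPKM) were close but apart, and *Ahnak2* stood lowest at 0.570 to 0.768 FPKM.

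**Figure D1:**
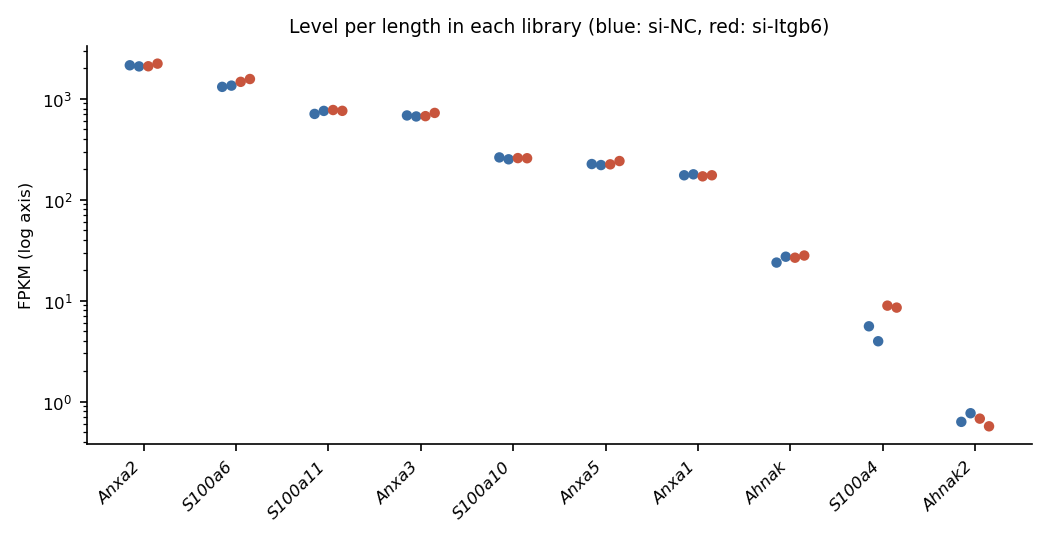
Deposited FPKM (vertical log axis) of the 10 genes in order of their mean, 1 point per library, blue for si-NC and red for si-Itgb6. *Anxa2* lies at 2091 FPKM or above and *Ahnak2* below 1 FPKM in every library, and the steps between most genes are wider than the spread among libraries.

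The scaffold genes parted by counts. *Ahnak* had 235 and 258 CPM (counts scaled to a common library size, after TMM normalization) in the si-NC libraries and 335 and 338 CPM in the si-Itgb6 libraries. The 2 groups did not overlap, and both si-Itgb6 libraries were close to each other. The log2 fold change was 0.45 ± 0.055 (SE, 95% interval 0.34 to 0.56, n = 2 per group), a fold of 1.36 from deposited counts of 3836, 4449, 5178 and 5561. *Ahnak2*, whose product is a further large protein of the same family, was scarce, with 7.11 and 8.69 CPM against 7.69 and 6.56 CPM. Its groups overlapped, and its log2 fold change of -0.15 ± 0.20 (95% interval -0.55 to 0.25) left room for a change in either direction. As the RNA is from bulk culture, a change in the mix of cells and a change in RNA per cell cannot be told apart.

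The annexins stayed near their si-NC levels. *Anxa2* had 3007 and 2941 CPM in si-NC and 2939 and 3176 CPM in si-Itgb6, so the lowest and the highest value both belonged to si-Itgb6. The log2 fold change of *Anxa2* was 0.04 ± 0.043, and its 95% interval ran from -0.048 to 0.13, short of the fold of 1.2 used as a threshold. *Anxa1*, whose product signals the resolution of inflammation, had 290 and 298 CPM against 284 and 296 CPM, with a log2 fold change of -0.018 ± 0.053. *Anxa3* had 1081 and 1060 CPM against 1067 and 1165 CPM (log2 fold change 0.06 ± 0.047), again with overlapping groups. *Anxa5*, the protein used to stain phosphatidylserine on dying cells, had 385 and 379 CPM against 386 and 422 CPM. The *Anxa5* groups did not overlap, but the nearest libraries lay within about 1 CPM, and the log2 fold change was 0.08 ± 0.052.

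Among the S100 genes the picture was mixed. *S100a10* had 179 and 172 CPM in si-NC and 176 and 179 CPM in si-Itgb6, with overlapping groups and a log2 fold change of 0.021 ± 0.058 (95% interval -0.098 to 0.14). *S100a6*, which encodes calcyclin, an S100 protein of proliferating cells, had 951 and 980 CPM against 1070 and 1159 CPM, without overlap. Its log2 fold change of 0.21 ± 0.047 was a fold of 1.15. *S100a11*, whose product binds annexin A1, had 359 and 386 CPM against 394 and 393 CPM, also without overlap, at a log2 fold change of 0.079 ± 0.052. That value was 0.0067 with GC content and length trends removed, 0.027 without si-NC replicate 2 and 0.14 without si-NC replicate 3. *S100a4*, a gene often used to mark fibroblasts and motile cells, had the widest fold and the fewest counts, 45 and 34 against 68.65 and 71. In CPM these were 2.76 and 1.97 against 4.46 and 4.31, a log2 fold change of 0.89 ± 0.29 (95% interval 0.30 to 1.48). Without si-NC replicate 3 the *S100a4* log2 fold change was 0.67 and the gene was no longer called by the thresholds given further on. The summed level of fibroblast markers was highest in si-Itgb6 replicate 1. The 8 markers summed to 3.19 and 3.53 CPM in si-NC and 6.01 and 3.28 CPM in si-Itgb6, and most of each si-NC sum came from *Pdgfrb*, the only marker of the list that was tested. *Pdgfrb* had 52 and 55 counts in si-NC and 35 and 47 in si-Itgb6, lower without overlap (log2 fold change -0.31, adjusted p = 0.643). The collagen gene *Col1a1* had 0, 1, 22 and 2 counts in the same order of libraries. *Col1a2* had 0, 0, 11 and 0, *Col3a1* 0, 1, 14 and 0, and *Dcn* 0, 0, 5 and 1. *Postn* had 0, 0, 3 and 0, and *Lum* 0, 0, 1 and 0. *Pdgfra*, with 0, 4, 2 and 4 counts, was not highest in si-Itgb6 replicate 1. Of the macrophage markers, *Lyz2* had 0, 0, 11 and 0 counts and *Itgam* 0, 0, 2 and 1. *Ptprc* (3, 1, 0 and 6), *Adgre1* (0, 0, 0 and 1), *Aif1*, *Cd68* and *Csf1r* were not highest in that library. In si-Itgb6 replicate 3 the fibroblast marker sum was 3.28 CPM and *S100a4* had 4.31 CPM. The part of fibroblasts or macrophages in the *S100a4* values was not tested.

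**Figure D2:**
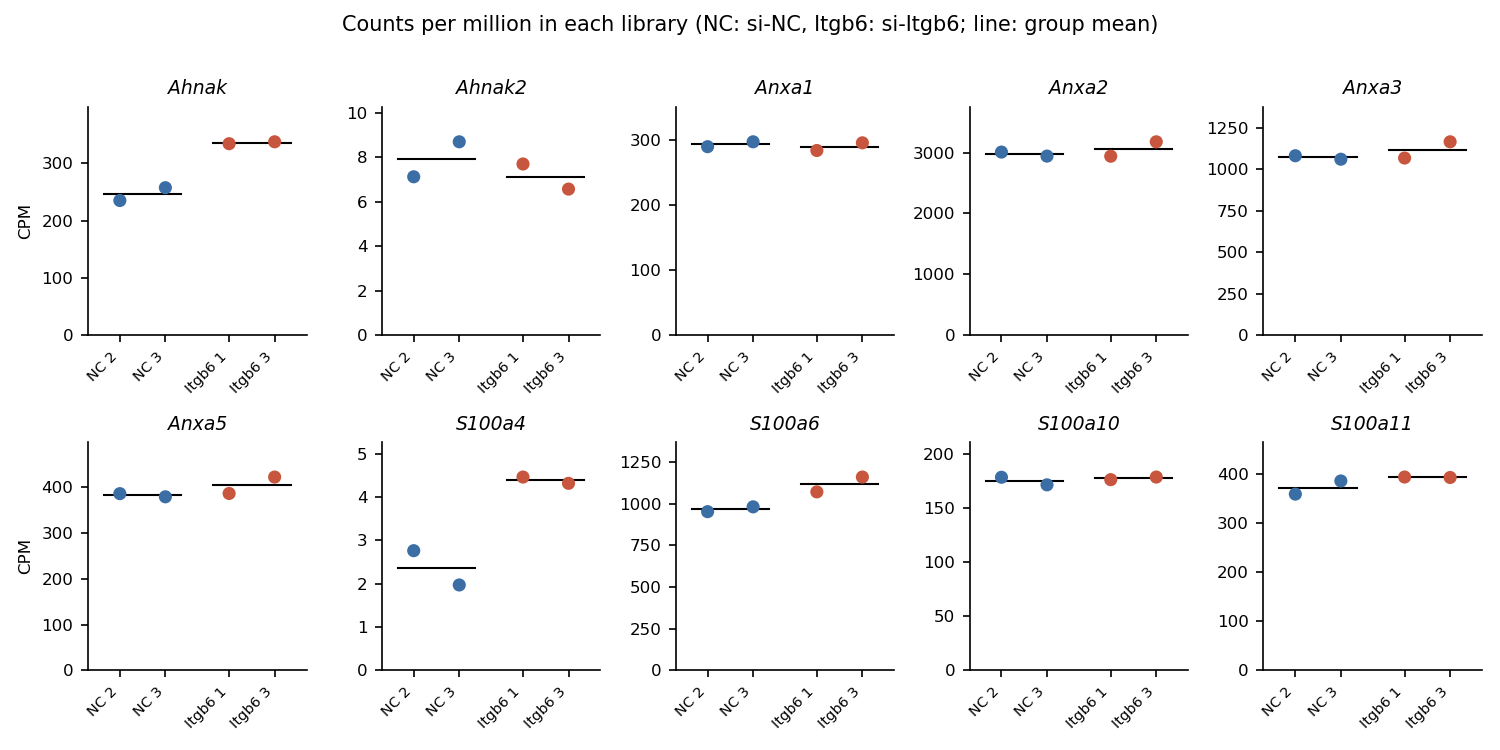
CPM of each gene in the 4 libraries (NC 2 and NC 3 are si-NC, Itgb6 1 and Itgb6 3 are si-Itgb6), with lines at the group means and each vertical axis starting at 0. *Ahnak* and *S100a4* show the clearest step between groups, while *Anxa2* and *S100a10* lie level.

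The study's thresholds are an unadjusted p below 0.05 together with a change of over 1.2 times. By them, 2 of the 10 genes were called higher (*Ahnak* and *S100a4*) and 0 lower, where 4.37% of all genes tested were called higher and 5.2% lower. At an adjusted p under 0.05 with no fold limit, 2 were called higher (*Ahnak* and *S100a6*) and 0 lower, against 2.11% and 2.52% of all genes. Groups were without overlap, si-Itgb6 higher, for 5 of the 10 (*Ahnak*, *Anxa5*, *S100a4*, *S100a6* and *S100a11*) and lower for 0, and 23.8% and 25.4% of all genes were so placed. The median log2 fold change of the 10 genes was 0.069, and that of all genes tested was 0.000172. Since these genes were chosen with this contrast known, nothing is read from these counts.

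**Figure D3:**
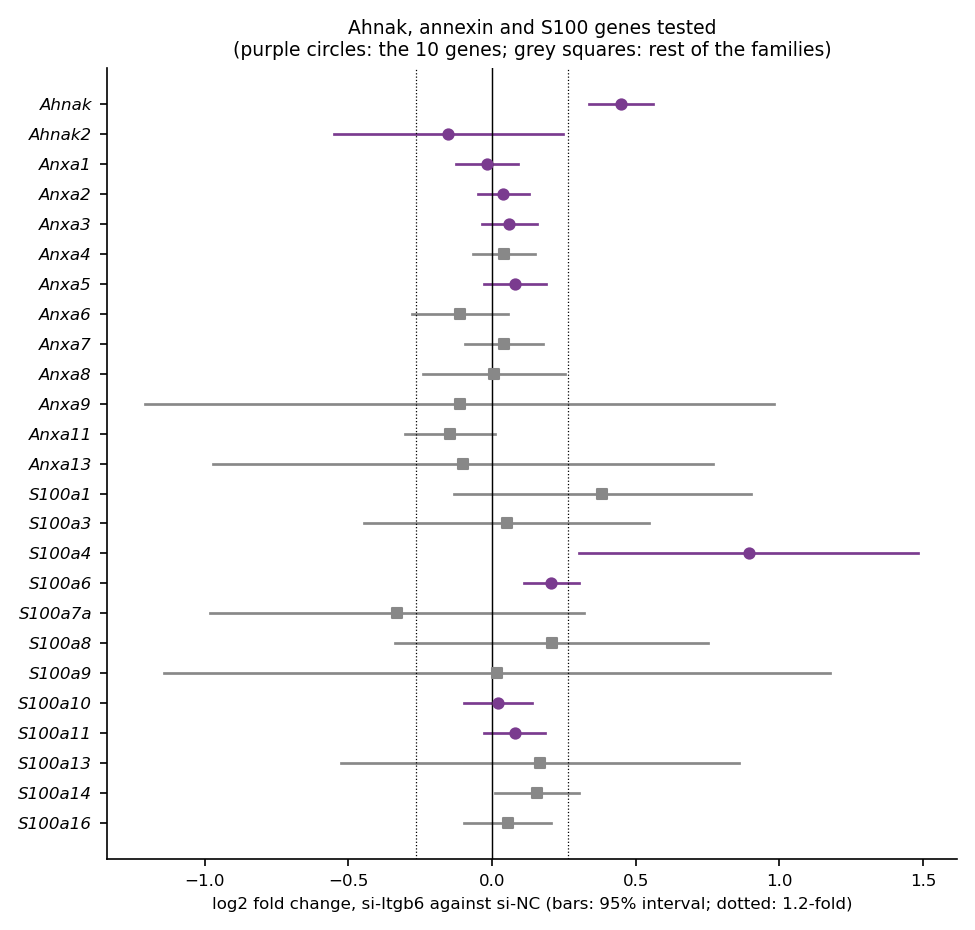
Log2 fold change (horizontal axis) of si-Itgb6 against si-NC with 95% intervals for the 10 genes (purple circles) and the other annexin and S100 genes tested (grey squares), with dotted lines at a fold of 1.2. The *Ahnak* and *S100a4* intervals lie wholly beyond the upper line, and the *Anxa2* and *S100a10* intervals lie between the lines.

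*Ahnak* was then set against its partners within each library, a ratio that a single scaling factor per library leaves as it is. The ratio of *Ahnak* to *Anxa2* counts was 0.0782 and 0.0876 in si-NC and 0.114 and 0.106 in si-Itgb6. The mean log2 ratio was 0.41 higher in si-Itgb6, a fold of 1.33, where the pooled SD between replicates was 0.095. The ratio of *Ahnak* to *S100a10* counts was 1.32 and 1.5 against 1.90 and 1.89, a log2 difference of 0.43 with a pooled SD of 0.094. By contrast, the 2 partners kept their proportion, with *Anxa2* to *S100a10* count ratios of 16.8 and 17.1 against 16.7 and 17.8 (log2 difference 0.018, pooled SD 0.048). With 2 libraries against 2, the smallest two-sided p that an exact permutation test allows is 0.333, so no test of a ratio was made.

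On the FPKM scale the *Ahnak* step shrank. *Ahnak* FPKM was 23.8 and 27.3 in si-NC and 26.6 and 28 in si-Itgb6, so the groups overlapped, and the difference of the log2 means was 0.10 where the counts gave 0.45. The FPKM ratio of *Ahnak* to *Anxa2* was 0.0111 and 0.0130 against 0.0127 and 0.0126, a log2 difference of 0.07 with a pooled SD of 0.12. The FPKM ratio to *S100a10* was 0.0909 and 0.109 against 0.103 and 0.109, a log2 difference of 0.093 with a pooled SD of 0.13. On this scale neither ratio differed by more than the spread between replicates. The difference between *Ahnak* and its partners was thus seen in counts and not in the deposited FPKM of the whole gene. Values split by transcript length are given further on.

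**Figure D4:**
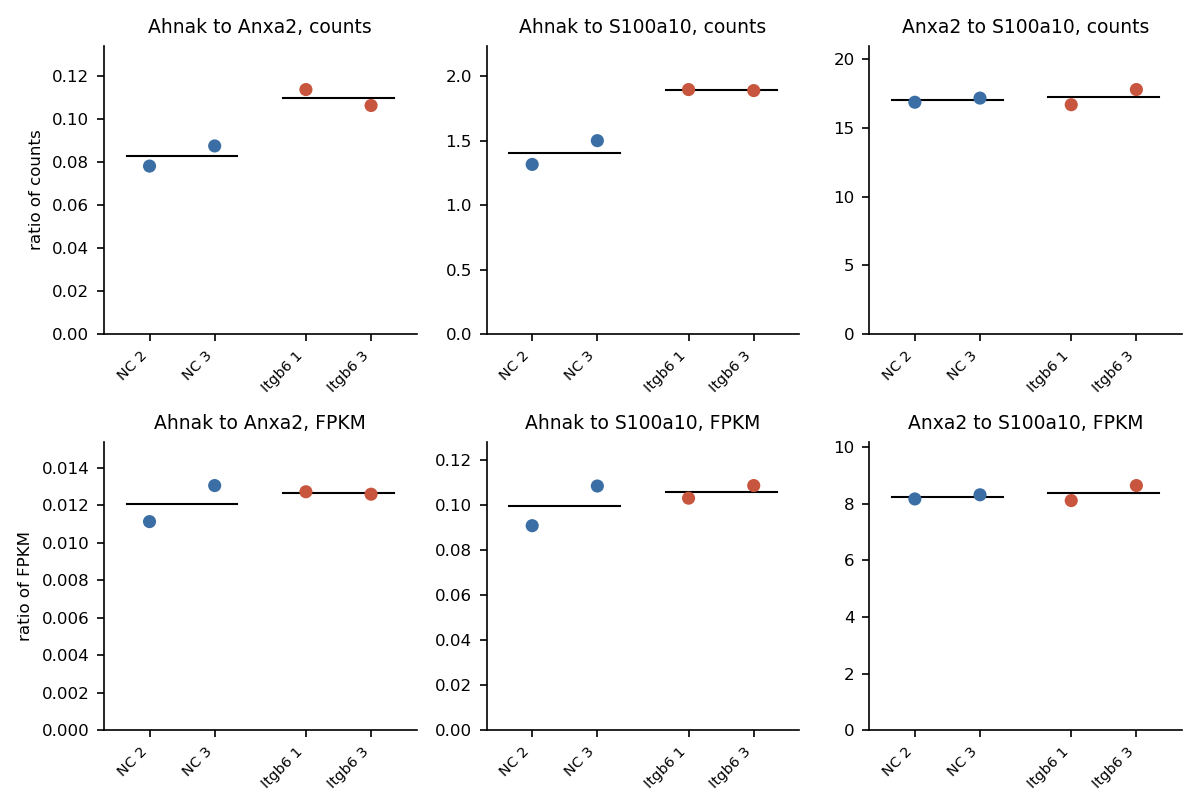
Ratio of *Ahnak* to *Anxa2*, *Ahnak* to *S100a10* and *Anxa2* to *S100a10* in each library, from counts (top row) and from deposited FPKM (bottom row), with lines at the group means. The red si-Itgb6 points lie above the blue si-NC points for both *Ahnak* ratios from counts, and the groups overlap in every other panel.

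The scales part because the authors' FPKM values divide *Ahnak* by a different length in each library. The length behind an FPKM value follows from the count, the FPKM and the library total. For *Ahnak* it was 9928 and 9479 bases in si-NC and 12593 and 11899 bases in si-Itgb6, a log2 difference of 0.34 without overlap. This comparison was chosen after the values had been seen. For the other 9 genes the log2 difference in length lay no further from 0 than the -0.0050 of *Anxa2*, which had 1411, 1411, 1405 and 1407 bases. *S100a4* (498 bases) and *S100a11* (511 bases) had the same length in every library. Of 9619 genes with at least 50 counts and 1 FPKM in every library, 120 (1.25%) had a length difference as large as that of *Ahnak* in either direction, and 93 of these also without overlap. The median size of the difference was 0.00853.

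**Figure D5:**
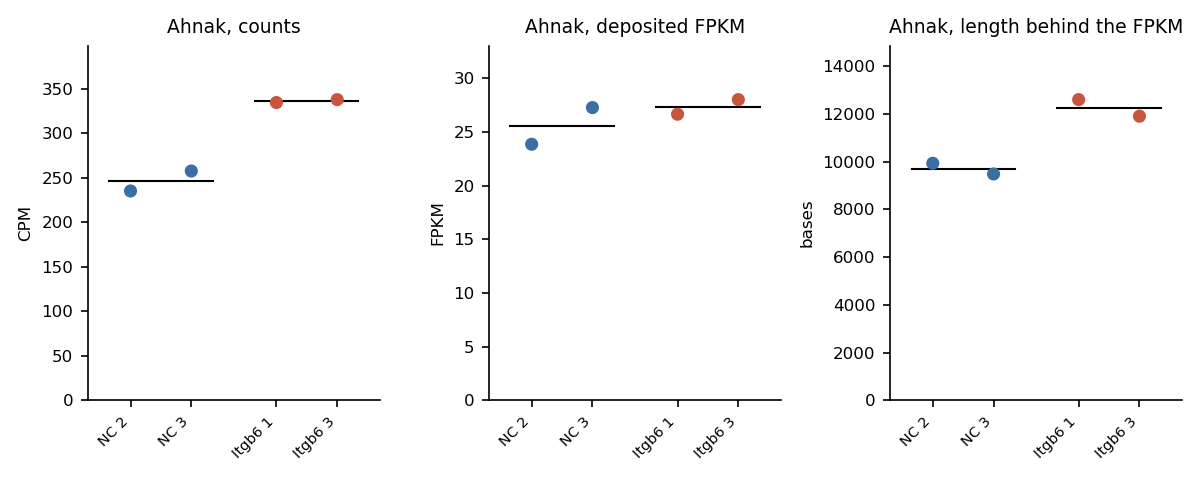
*Ahnak* in each library as CPM, as deposited FPKM and as the length in bases behind the FPKM, with lines at the group means. Counts and length are both higher in the 2 si-Itgb6 libraries, and FPKM overlaps between groups.

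All 4 lengths lie between the short *Ahnak* transcripts and the 18100 bases of Ahnak-202, the only one with the giant exon. If the length is read as an average over Ahnak-202 and a transcript of 830 bases, Ahnak-202 made up 52.7% and 50.1% of *Ahnak* molecules in si-NC and 68.1% and 64.1% in si-Itgb6. With a short transcript of 2200 bases the shares were 48.6% and 45.8% against 65.4% and 61.0%. In the first case the long message had 12.6 and 13.7 FPKM in si-NC and 18.1 and 17.9 FPKM in si-Itgb6. The short message had 11.3 and 13.6 against 8.50 and 10.1 FPKM, resting on 109 to 194 of the counts in a library. These shares are arithmetic on the assumed lengths, not reads counted on the junctions printed above, and whether the proportion of transcripts differed was not tested. For the 287 tested genes with a longest transcript of at least 10000 bases, the median log2 fold change was 0.065, and 29 (10.1%) were called higher and 18 (6.27%) lower, against 4.37% and 5.2% of all genes tested. With the trends of each library on GC content and length removed, the *Ahnak* log2 fold change was 0.39. The part of transcript length and base composition in the *Ahnak* values was not tested.

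Upstream sequence is shown for *Ahnak* and for *Anxa2*, the partner that it was set against. RefSeq promoter windows (GRCm38.p6) matched 8 of the 10 genes, all but *Anxa3* and *S100a10*. The 250 bases before the start were searched on both strands for TATAAA (the TATA box), GGAATG (the core bound by TEAD factors, which carry YAP to DNA), TGANTCA (the AP-1 site) and ACGTG (the core of hypoxia response elements). The lines below give chr19:8989034-8989283 for *Ahnak* and chr9:69453433-69453682 for *Anxa2*, both on the plus strand, with matches in capitals.
Ahnak: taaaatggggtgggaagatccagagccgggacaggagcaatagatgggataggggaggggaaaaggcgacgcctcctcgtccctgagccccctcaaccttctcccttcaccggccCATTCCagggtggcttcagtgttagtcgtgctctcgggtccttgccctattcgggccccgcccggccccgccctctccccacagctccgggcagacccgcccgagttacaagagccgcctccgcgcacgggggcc
Anxa2: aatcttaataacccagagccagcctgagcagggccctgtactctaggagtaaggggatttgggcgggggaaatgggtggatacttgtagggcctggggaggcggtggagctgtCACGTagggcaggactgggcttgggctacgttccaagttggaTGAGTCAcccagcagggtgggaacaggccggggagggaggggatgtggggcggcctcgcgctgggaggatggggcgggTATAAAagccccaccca
The *Ahnak* window held 1 match, to GGAATG on the minus strand, and was 66.4% GC. The *Anxa2* window, 62.4% GC, held TATAAA near its end, TGAGTCA, and ACGTG on the minus strand. *Ahnak2* and *Anxa1* also held GGAATG, *Anxa1* and *S100a4* held TATAAA, *S100a11* held TGANTCA and ACGTG, *Anxa5* held ACGTG, and *S100a6* held none of them. Over 32851 windows, 12.4% held TATAAA, 12.6% GGAATG, 6.7% TGANTCA and 16.6% ACGTG. A match of letters is no evidence of binding.

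The genes most like *Ahnak* in the 4 libraries were found among 8186 genes with a mean of at least 10 CPM, by the root mean square difference of centred log2 CPM. They were *Pcf11*, a factor of transcript 3' end cleavage (0.0163), *Mocos*, the molybdenum cofactor sulfurase (0.0184), *Ptgs2*, the inducible cyclooxygenase (0.0224), *Hspa4l*, a chaperone of the HSP110 group (0.0244), and *Tfrc*, the transferrin receptor (0.0248). *Ptgs2* had 114 and 127 CPM in si-NC and 162 and 169 CPM in si-Itgb6, and *Tfrc* had 256 and 269 against 353 and 366 CPM.

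The rest of the annexin and S100 families gave no call. Of all genes tested, 4.37% were called higher and 5.2% lower, so nothing is read from 0 calls in lists this short. Of 8 other annexins listed, 7 were tested and 0 were called, and 0 had an unadjusted p under 0.05 by edgeR or by DESeq2. *Anxa4*, an annexin of epithelial membranes, was the most abundant of them at 413 to 461 CPM (log2 fold change 0.04, adjusted p = 0.725). *Anxa11* (log2 fold change -0.15, adjusted p = 0.305) and *Anxa6* (-0.11, adjusted p = 0.508) had groups without overlap, si-Itgb6 lower, as had 25.4% of all genes tested. *Anxa7*, *Anxa8*, *Anxa9* and *Anxa13* had log2 fold changes of 0.042, 0.0078, -0.11 and -0.10, the last pair with 95% intervals of -1.21 to 0.98 and -0.97 to 0.77. Of 14 other S100 genes listed, 8 were tested and 0 were called. At an unadjusted p under 0.05 and any fold, edgeR had 1 (*S100a14*) and DESeq2 0. The share of all genes with such a p was not counted, so nothing is read from that number. *S100a14*, an S100 gene of epithelia, had 85.8 and 86.1 CPM against 91.9 and 99.6 CPM (log2 fold change 0.16 ± 0.071, adjusted p = 0.228). *S100a8* and *S100a9*, which encode the subunits of calprotectin, were scarce, and their log2 fold changes were 0.21 and 0.016. *S100a1* stood 0.38 higher in log2 fold change (adjusted p = 0.446), and without si-Itgb6 replicate 1 it stood 0.61 higher and was called. *S100a3*, *S100a7a*, *S100a13* and *S100a16* had 0.051, -0.33, 0.17 and 0.054, all with adjusted p of 0.64 or above. *S100a2*, *S100a5* and *S100a7l2* were at 0 in all 4 libraries.

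Known binding partners of AHNAK, annexin A2 and S100A10 likewise gave no call. Of 19 listed, 15 were tested and 0 were called, where 4.37% of all genes tested were called higher and 5.2% lower. Nothing about the partners is read from 0 calls among 15 genes. At an unadjusted p under 0.05 and any fold, edgeR had 2 (*Capns1* and *Plcg1*) and DESeq2 1 (*Capns1*). The share of all genes with such a p was not counted, so nothing is read from these numbers either. The log2 fold change was -0.13 for *Capns1*, the small calpain subunit (adjusted p = 0.161), and -0.17 for *Plcg1*, a phospholipase whose activity AHNAK promotes (adjusted p = 0.221). *Plat*, the plasminogen activator that the annexin A2 tetramer gathers at the cell surface, ranged from 1115 to 1175 CPM (log2 fold change 0.044, adjusted p = 0.658). *Myof*, a ferlin of membrane repair, had -0.0056 (adjusted p = 0.97).

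Of 5 receptors for annexin A1 or S100 proteins, only *Tlr4*, a receptor for calprotectin, passed the filter. It had 4.72 and 6.08 CPM in si-NC and 8.21 and 8.99 CPM in si-Itgb6, without overlap. It was called higher at a log2 fold change of 0.67 ± 0.20 (unadjusted p = 0.00238, adjusted p = 0.051, edgeR quasi-likelihood test), so it did not pass after adjustment. *Ager*, the receptor RAGE, had 2, 8, 7 and 7 counts, *Fpr1* and *Fpr3* were at 0 in every library, and *Fpr2* had at most 1 count. Of the 8 proximal tubule markers tested, 1 was called, where 4.37% of all genes tested were called higher and 5.2% lower. It was *Aqp1*, a water channel, higher at a log2 fold change of 0.59 (adjusted p = 0.000617). By contrast, *Cdh16* had -0.088, *Anpep* -0.58 and *Ggt1* -0.19, each with an adjusted p of 0.521 or above. Of 5 epithelial markers tested, 0 were called, against the same 4.37% and 5.2% of all genes tested. At any fold, 3 had an unadjusted p under 0.05 by edgeR and by DESeq2 (*Cdh1*, *Epcam* and *Krt8*, all lower). The share of all genes with such a p at any fold was not counted, so nothing is read from that number. These 3 also had groups without overlap, si-Itgb6 lower, as had 25.4% of all genes tested. *Krt8* (-0.20, adjusted p = 0.00881) passed after adjustment, where 2.52% of all genes tested did so on the lower side. *Krt18* (-0.029) and *Krt19* (-0.0072) had overlapping groups.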

How the data were processed

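RNA-sequencing of 4 libraries was analysed. The authors made unstranded libraries of polyadenylated RNA. The values they deposited are estimated counts for each gene, left unnormalized and not whole for 1447 to 1500 genes a library. FPKM values of the same libraries were deposited beside them and served for levels per length and entered no test. The aligner, counting tool, genome build and annotation are not given in the sources used here. Counts were rounded to whole numbers for the tests and filtered with filterByExpr of edgeR 4.0.16 (minimum count 10, minimum total count 15, R 4.3.3). After TMM normalization, groups were tested by the edgeR quasi-likelihood method, and p-values of the 11727 genes were adjusted after Benjamini and Hochberg. The test was first tested on simulated data. The common biological coefficient of variation was 0.0551. A call needed an unadjusted p below 0.05 with a change of over 1.2 times, the study's thresholds. They called 610 genes lower and 512 higher here, more in each direction than the study reported, and the reason was not tested. Intervals are at the 95% level, and standard errors come from the fit. Alternatives were the exact and likelihood ratio tests, DESeq2 1.42.0, other normalizations, filters and thresholds, removal of GC content and length trends, and leaving out each library.

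The 10 genes and all lists were chosen with earlier results of these data known. The genes named are *Itgb6*, those 10, every other annexin and S100 gene tested, partners and receptors that were called, and the 5 genes most like *Ahnak*. *Plat*, *Myof*, *Capns1*, *Plcg1*, *Ager* and the *Fpr* genes were named after their values were seen, as were markers. Coordinates and transcripts are those of GENCODE vM21 (GRCm38), which holds 99.59% of the gene identifiers. *Ahnak2* was matched by symbol, and the length behind its FPKM (11342 to 11355 bases) is more than the 5443 bases of its longest transcript there, so the authors' annotation differs. Exons of *Anxa2*, *Anxa3* and *S100a4* overlap those of *Gm16144*, *Gm42603* and *Gm42674*, and without strand their reads cannot be told apart where they lie on opposite strands.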

Additional observations from a re-analysis of the deposited data

How the results depend on the processing

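*Ahnak* was called higher and kept its direction in every alternative except a fold over 1.5, where only *S100a4* of the 10 genes was called (1 gene). With an adjusted p under 0.05 and a fold over 1.2, 1 of the 10 was called (*Ahnak*), 0 partners or receptors, 240 genes lower and 178 higher. A fold over 1.5 gave 110 lower and 125 higher, and DESeq2 383 and 320. On leaving out each library, 402 to 768 genes were lower and 338 to 645 higher, 1 to 2 of the 10 were called higher (without si-NC replicate 3, only *Ahnak*), and 0 to 1 other annexin or S100 gene (*S100a1*, without si-Itgb6 replicate 1). The *Ahnak* log2 fold change was then 0.38 to 0.52, and its log2 ratio was 0.33 to 0.49 against *Anxa2* and 0.33 to 0.52 against *S100a10*. From FPKM those ratios were 0.070 and 0.093. With GC and length trends removed they were 0.32 and 0.40, and *S100a10* turned from 0.021 to -0.012. The library-size scaling turned *Anxa8* (-0.0063), and the GC and length trends *S100a9* (-0.098), both uncalled. Uncalled log2 fold changes that turned sign on leaving out a library ranged from -0.10 to 0.091 for *Itgb6*, -0.037 to 0.12 for *Anxa4*, -0.019 to 0.11 for *Anxa7*, -0.096 to 0.11 for *Anxa8*, -0.49 to 0.42 for *Anxa9*, -0.35 to 0.12 for *Anxa13*, -0.014 to 0.11 for *S100a3*, -0.68 to 0.14 for *S100a7a*, -0.21 to 0.22 for *S100a9* and -0.091 to 0.39 for *S100a13*. Of the 10 genes, those that turned were *Ahnak2* (-0.29 to 0.0042), *Anxa1* (-0.046 to 0.0098), *Anxa2* (-0.015 to 0.094), *Anxa3* (-0.0025 to 0.12) and *S100a10* (-0.0045 to 0.049). No paired analysis was possible because the groups share only 1 replicate number. The causes were not tested. Genes with few counts, such as *S100a4*, *Ahnak2* and *S100a9*, are limited by depth.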
